A study of Mus musculus with 9 samples.

Results

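The proteasome genes of mouse cytotoxic T lymphocytes were followed in cultures with and without inhibitors of the kinase mTOR. Genes were taken by name, from Psma to Psmg followed by a number and any suffix, among the 18193 genes that had a probe set carrying a single gene symbol. Where a gene had several such probe sets, the brightest on average stood for it. This gave 49 genes, of which 47 passed the filter on low signals. The 47 comprised 14 genes of the constitutive 20S core, 23 of its regulators, 4 of the immunoproteasome, 4 of the 20S assembly chaperones, and Psmc3ip and Psme3ip1, which share only the name and encode no proteasome subunit. The probe set for Psme2, which encodes the beta subunit of the PA28 activator, also carried the symbol Psme2b, so Psme2 was not analysed here.

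The 26S proteasome degrades proteins tagged with ubiquitin. Its 20S core is a barrel of alpha and beta rings with the catalytic subunits Psmb5, Psmb6 and Psmb7 inside, and the 19S cap recognises, unfolds and feeds in the substrate. Lymphocytes and cells exposed to interferon gamma can replace these catalytic subunits with Psmb8, Psmb9 and Psmb10 to form the immunoproteasome, which favours peptides that bind MHC class I. The PA28 activator, an alternative cap, is induced with it. Transcription of the constitutive subunit genes is driven in large part by the factor NRF1, encoded by Nfe2l1.

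The CD8 T cells came from spleens of mice of the strain P14-TCR, genotype wild type, whose transgenic receptor recognises the peptide gp33-41. All cultures were activated with that peptide in the presence of interleukin 2 and interleukin 12 for 48 h and grown for another 96 h, to day 6. For the last 48 h they received the solvent DMSO, 20 nM rapamycin, which acts mainly on mTOR complex 1, or 1 uM KU-0063794, which blocks the kinase in both mTOR complexes. Every group had 3 arrays, 1 for each of 3 spleens, and each spleen supplied a culture to all groups.

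Signals are on the log2 scale, on which a difference of 1 is a change of 2-fold. A background level of 1.32 log2 was set from 31 genes of other tissues, and 30.2% to 31.0% of probe sets lay above it on each array. All 12 measured markers of CD8 T cells were above it in every group, and their summed signal ranged from 12.84 to 12.96 log2 without inhibitor, from 12.70 to 12.79 with rapamycin and from 12.74 to 12.82 with KU-0063794. Of the markers of other cells, 1 of 3 for CD4 T cells (Zbtb7b), 1 of 6 for B cells (Cd79b) and 1 of 11 for myeloid and dendritic cells (Csf1r) were above it in each group, and none of the NK cell or erythroid genes was. In the same order of groups, their summed signals were 2.66 to 2.95, 2.63 to 2.70 and 2.57 to 2.66 log2 for CD4 T cells, 3.22 to 3.60, 2.97 to 3.55 and 3.15 to 3.37 for B cells, and 3.97 to 4.09, 3.90 to 3.99 and 3.96 to 4.12 for myeloid cells. RNA quality was read from 2 controls as the 3' signal less the 5' signal. For actin it ranged from 0.49 to 0.65 log2 without inhibitor, from 0.62 to 0.72 with rapamycin and from 0.65 to 0.70 with KU-0063794. Within each of the 3 spleens the actin value was higher with each inhibitor than with DMSO. For Gapdh it ranged from -0.21 to 0.04 log2 in DMSO, -0.25 to -0.03 with rapamycin and -0.22 to -0.03 with KU-0063794, and within each spleen it was lower with each inhibitor. The summed CD8 signal, which includes the effector genes Gzmb and Prf1, was also lower with both. The part of these shifts in the differences given here was not tested. In bulk RNA, fewer cells that express a gene and less RNA per cell cannot be told apart.

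All 47 tested genes were above the background level on all 9 arrays. The 2 genes left out of the tests were Psma8 and Psmb11, core subunits specific to testis and thymus. Psma8 had group means of 0.16, 0.27 and 0.16 log2 in DMSO, rapamycin and KU-0063794 cultures, and Psmb11 of 0.06, 0.04 and 0.08, all below the background level. Signals of different probe sets depend on their probes, so levels of different genes were not compared.

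The promoters of 4 genes are shown as examples. Psmc6 was the only gene of the 47 that passed the test. Psmb6 and Psmb9 are a constitutive catalytic subunit and its immunoproteasome counterpart, with fold changes on opposite sides of 0. Those of Psmb7 and Psmb10 were too, but less far apart. Psmb8 is the immunoproteasome gene with the fold change nearest 0 in rapamycin. Each line gives the 250 bases before the gene's start, 5′ to 3′ on the gene's strand, from RefSeq's annotation of GRCm38.p6. Psmc6 (chr14:45329574-45329823), Psmb6 (chr11:70525107-70525356) and Psmb8 (chr17:34197945-34198194) lie on the plus strand and Psmb9 (chr17:34187331-34187580) on the minus strand.
Psmc6: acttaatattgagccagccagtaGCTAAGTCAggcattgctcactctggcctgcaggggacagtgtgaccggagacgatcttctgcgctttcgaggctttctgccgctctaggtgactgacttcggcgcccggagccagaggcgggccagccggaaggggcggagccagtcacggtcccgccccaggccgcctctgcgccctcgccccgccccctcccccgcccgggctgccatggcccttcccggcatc
Psmb6: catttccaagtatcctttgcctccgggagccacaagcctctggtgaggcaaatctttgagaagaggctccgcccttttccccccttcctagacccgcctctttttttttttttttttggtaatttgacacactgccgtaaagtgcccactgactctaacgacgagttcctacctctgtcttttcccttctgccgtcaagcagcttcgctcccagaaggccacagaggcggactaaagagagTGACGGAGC
Psmb8: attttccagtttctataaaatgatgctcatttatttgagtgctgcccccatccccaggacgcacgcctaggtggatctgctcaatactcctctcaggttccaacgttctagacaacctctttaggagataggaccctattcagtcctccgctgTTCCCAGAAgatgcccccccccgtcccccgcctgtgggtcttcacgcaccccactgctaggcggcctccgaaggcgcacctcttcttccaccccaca
Psmb9: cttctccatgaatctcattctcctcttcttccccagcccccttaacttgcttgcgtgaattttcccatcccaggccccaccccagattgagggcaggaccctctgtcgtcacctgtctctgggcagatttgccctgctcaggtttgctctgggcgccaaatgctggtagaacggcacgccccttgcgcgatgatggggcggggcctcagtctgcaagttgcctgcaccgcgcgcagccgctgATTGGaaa
Capitals mark matches on either strand to the core of the antioxidant response element bound by NRF1 and related factors (TGACNNNGC), to the interferon gamma activated site (TTCNNNGAA) or to the CCAAT box (CCAAT). Psmc6 and Psmb6 held the antioxidant element, 227 and 9 bases before the start. Psmb8 held the interferon gamma activated site 97 bases before its start, and Psmb9 a CCAAT box 8 bases before its own.

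Promoters of 41 of the 49 genes were found, in 44 windows. The antioxidant element was present in 5 windows, those of Psmb5, Psmb6, Psmc6, Psmd9 and Psmd12, or 11.4%, beside 10.2% of all 32851 windows of that length. The core of the interferon-stimulated response element (GAAA, any 2 bases, GAAA) was present in 6.82% of the 44 windows and 2.98% of all, before Psmb3, Psmd4 and Psmd9 and before none of the 4 immunoproteasome genes. The interferon gamma activated site was present in 4.55% and 7.02%, and the CCAAT box in 36.4% and 33.8%. A match describes letters only, and a window without one says nothing about the factor.

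The comparison of rapamycin with DMSO asks which proteasome transcripts of established effector cells differ when rapamycin-sensitive mTOR signalling is blocked. Of the 47 genes, only Psmc6, an ATPase of the 19S ring that unfolds substrates, fell at an adjusted p under 0.05 in limma, and none rose. Among all 13278 genes tested, 1.79% were lower and 2.65% higher by that rule, so 1 of 47 was near the background. The core genes had a median log2 fold change of -0.11, the regulators of -0.12 and the 4 immunoproteasome genes of 0.14, beside -0.0043 for all genes tested. Single arrays moved these medians: leaving out DMSO replicate 1 brought the immunoproteasome median to 0.08, DMSO replicate 3 to 0.21 and rapamycin replicate 3 to 0.07. The core median was -0.07 when DMSO replicate 3 was left out.

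**Figure D1:**
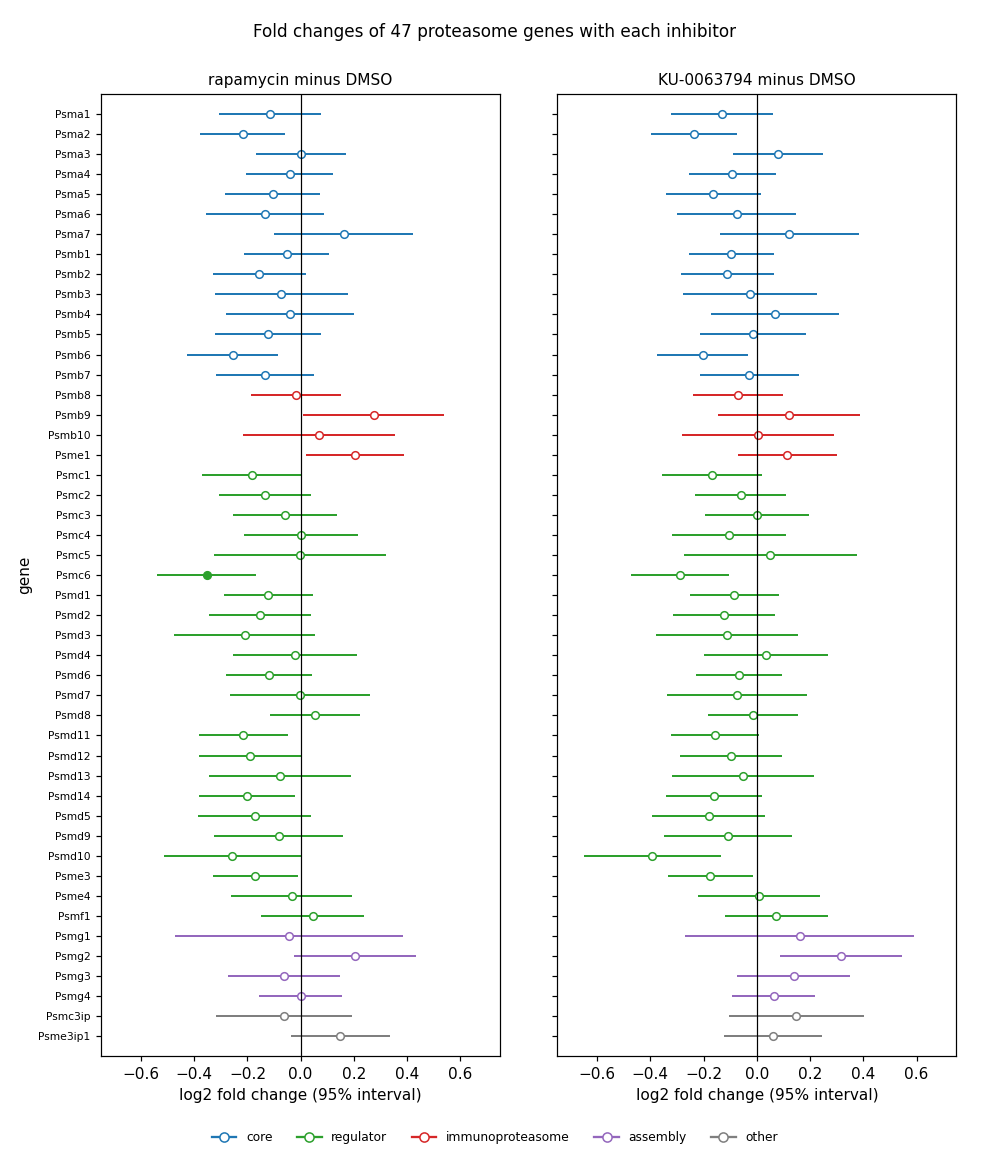
Log2 fold change of each of the 47 tested genes with its 95% interval from limma, for rapamycin (left) and KU-0063794 (right) against the same 3 DMSO arrays; colours give the class, and a filled point marks an adjusted p under 0.05. Only Psmc6 with rapamycin is filled; its fold change is -0.35, and most core and regulator points lie slightly left of 0.

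Psmc6 read 7.11, 7.04 and 7.07 log2 in the DMSO cultures of spleens 1, 2 and 3, and 6.80, 6.70 and 6.66 with rapamycin. The groups did not overlap, and the signal was lower in all 3 spleens. Its log2 fold change was -0.35 (SE 0.081, 95% interval -0.54 to -0.17, adjusted p = 0.0418 in limma). The call was kept without KU-0063794 replicate 3 and lost without any 1 of the other 8 arrays (adjusted p 0.0490 to 0.133 over the 9). A second Psmc6 probe set above the background level read 3.55 ± 0.03 log2 in DMSO and 3.54 ± 0.31 with rapamycin (SD, n = 3). The mean of all Psmc6 probe sets, including another below the background level, gave a log2 fold change of -0.09 (adjusted p = 0.749 in limma).

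The other genes of the core and the 19S cap differed little, and mostly in the same direction. All 7 constitutive beta ring genes, 6 of 7 alpha ring genes, 5 of 6 ATPase genes, 10 of 11 other 19S subunit genes and the 3 genes of 19S assembly chaperones had a log2 fold change below 0. These are 31 of 34, beside 51.1% of all genes tested. They include Psma3, Psmc5 and Psmd7, whose values lay next to 0 (-1e-04, -0.0021 and -0.0041 log2). The groups did not overlap, with rapamycin lower, in 12 of the 34, beside 9.69% of all genes. The signal was lower in all 3 spleens in 24 of the 34, beside 21.4%. Among the 8181 genes tested above the background level, these 3 shares were 48.9%, 12.6% and 26.2%. Their median change was -0.055 log2 in spleen 1, -0.14 in spleen 2 and -0.14 in spleen 3. No test was made over these genes. The mean of all probe sets brought the core median to -0.054 and the regulator median to -0.059. That mean takes in probe sets below the background level.

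Psmb6 encodes the caspase-like catalytic subunit and had the lowest fold change of the core. It read 7.53, 7.56 and 7.62 log2 in DMSO and 7.37, 7.25 and 7.31 with rapamycin. The groups did not overlap (log2 fold change -0.26, SE 0.075, adjusted p = 0.0968 in limma). With the spleen as a block, Psmb6 passed (adjusted p = 0.0493 in limma), as did Psmc6 (adjusted p = 0.0199), so that 2 of 47 genes were lower, beside 5.52% of all genes by that rule.

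The other constitutive catalytic genes did not pass in either fit. Psmb5, for the chymotrypsin-like subunit, read 7.23, 7.30 and 7.45 log2 in DMSO and 7.19, 7.16 and 7.27 with rapamycin (log2 fold change -0.12, 95% interval -0.32 to 0.07). Psmb7, for the trypsin-like subunit, read 4.003, 4.003 and 4.182 log2 in DMSO and 3.861, 3.997 and 3.927 with rapamycin (log2 fold change -0.13, 95% interval -0.32 to 0.05). The Psmb5 groups overlapped, while for Psmb7 the highest rapamycin value lay just under the lowest DMSO values. Psma7, an alpha ring gene, was the 1 core gene with a fold change above 0. It read 7.17, 7.36 and 7.46 log2 in DMSO and 7.50, 7.36 and 7.61 with rapamycin, with overlapping groups (log2 fold change 0.16, 95% interval -0.09 to 0.42).

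Among the regulators, 5 more genes had intervals wholly below 0 without passing the adjusted test, which with Psmc6 makes 6 of 23 lower at an unadjusted p under 0.05, beside 8.74% of all genes. The 5 were Psmd11 and Psmd12, scaffold subunits of the 19S lid, Psmd14, the lid's deubiquitinase, Psmd10, the assembly chaperone also called gankyrin, and Psme3, the nuclear activator PA28 gamma. Their log2 fold changes ran from -0.26 for Psmd10 to -0.17 for Psme3, with adjusted p between 0.145 and 0.272 in limma. Psmd8, a lid subunit, had the highest regulator fold change. It read 7.84, 7.83 and 7.84 log2 in DMSO and 7.84, 7.93 and 7.90 with rapamycin, groups that shared 1 value (log2 fold change 0.05, 95% interval -0.11 to 0.22).

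The immunoproteasome genes had fold changes near or above 0 with rapamycin, and none passed the test. Psmb9 read 7.04, 6.97 and 7.15 log2 in DMSO and 7.50, 7.09 and 7.39 with rapamycin. It was higher in all 3 spleens, but the group ranges overlapped (log2 fold change 0.27, 95% interval 0.01 to 0.54, adjusted p = 0.257 in limma). Psme1, the alpha subunit of PA28, read 8.27, 8.24 and 8.41 log2 in DMSO and 8.50, 8.43 and 8.60 with rapamycin. These groups did not overlap (log2 fold change 0.20, 95% interval 0.02 to 0.39, adjusted p = 0.222 in limma), which made Psme1 the 1 gene of 47 with rapamycin wholly higher, beside 9.38% of all genes. With the spleen as a block, neither Psmb9 nor Psme1 passed (adjusted p = 0.0696 and 0.0862 in limma).

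Psmb8, the chymotrypsin-like subunit of the immunoproteasome, read 8.56, 8.72 and 8.65 log2 in DMSO and 8.64, 8.61 and 8.64 with rapamycin (log2 fold change -0.02, 95% interval -0.18 to 0.15). Psmb10, the trypsin-like one, read 6.75, 6.96 and 7.13 log2 in DMSO and 6.94, 6.90 and 7.21 with rapamycin (log2 fold change 0.07, 95% interval -0.21 to 0.35). For both genes the groups overlapped and the spleens differed in direction. A second Psmb8 probe set above the background level read 3.93 ± 0.04 log2 in DMSO and 3.84 ± 0.05 with rapamycin (SD, n = 3).

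**Figure D2:**
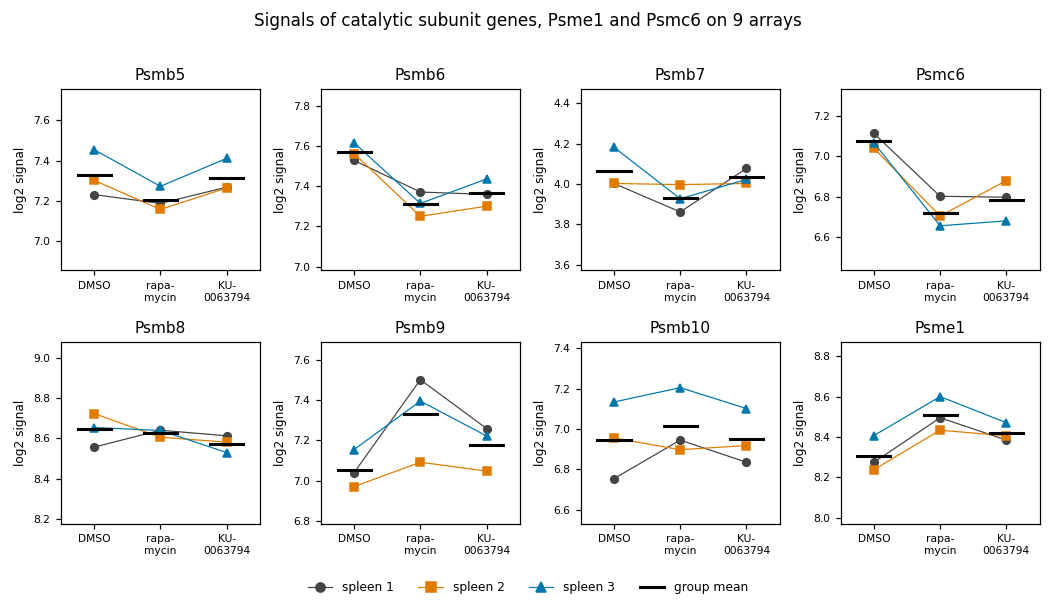
Log2 signal of the constitutive catalytic genes, the immunoproteasome genes and Psmc6 on the 9 arrays; each line joins the 3 cultures of 1 spleen, bars are group means, and vertical axes differ in position. Psmb6 and Psmc6 are lower with both inhibitors in every spleen, and Psmb9 and Psme1 are higher in every spleen.

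Each immunoproteasome catalytic subunit takes the place of 1 constitutive subunit, so their changes were set side by side within spleens. The change of Psmb9 exceeded that of Psmb6 by 0.62, 0.43 and 0.54 log2 with rapamycin in spleens 1 to 3, a mean of 0.53 ± 0.093 (SD, n = 3). For Psmb8 and Psmb5 the differences were 0.13, 0.03 and 0.17 log2, and for Psmb10 and Psmb7 they were 0.33, -0.05 and 0.33. The Psmb9 pair was the furthest from 0 in every spleen. The 3 pairs were not tested.

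The comparison of KU-0063794 with DMSO asks the same of an inhibitor of both mTOR complexes. None of the 47 genes passed the adjusted test in limma (lowest adjusted p = 0.0889, for Psmc6), and 5 were lower and 1 higher at an unadjusted p under 0.05. Among all genes tested, 1.78% were lower and 2.28% higher at the adjusted threshold, and 8.43% and 10% at the unadjusted one. The median log2 fold change was -0.08 for the core, -0.10 for the regulators and 0.06 for the immunoproteasome, beside 0.0114 for all genes. Leaving out DMSO replicate 1 brought the immunoproteasome median to 0.0025, DMSO replicate 3 to 0.13 and KU-0063794 replicate 3 to 0.02. The same DMSO arrays served both comparisons, so their values are given side by side and no agreement is read from them.

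Psmc6 read 6.80, 6.88 and 6.68 log2 with KU-0063794, below all DMSO values (log2 fold change -0.29, 95% interval -0.47 to -0.11). Its second probe set differed by -0.13 log2. The mean of all Psmc6 probe sets, again including another below the background level, gave -0.18 (adjusted p = 0.447 in limma). Psmd10, the gankyrin gene, read 4.22, 3.85 and 4.07 log2 in DMSO, 3.81, 3.63 and 3.93 with rapamycin and 3.68, 3.59 and 3.69 with KU-0063794. The KU-0063794 and DMSO values did not overlap (log2 fold change -0.39, SE 0.113, adjusted p = 0.0948 in limma). With the spleen as a block both genes passed (adjusted p = 0.0398 for Psmc6 and 0.0202 for Psmd10 in limma), 2 of 47 lower, beside 5.86% of all genes.

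In the 34 core and 19S genes, 28 had a KU-0063794 fold change below 0, beside 46.8% of all genes. The groups did not overlap, with KU-0063794 lower, in 9 of the 34, beside 9.29% of all genes, and the signal was lower in all 3 spleens in 20, beside 19.3%. Among the 8181 genes tested above the background level, these 3 shares were 47.1%, 13.3% and 25.8%. Psma2, an alpha ring gene, had the lowest core value. It read 8.64, 8.64 and 8.75 log2 in DMSO, 8.47, 8.44 and 8.47 with rapamycin and 8.42, 8.43 and 8.47 with KU-0063794. Both inhibitor groups lay below all DMSO values, and neither fold change passed (-0.24 log2 with KU-0063794, adjusted p = 0.102 in limma, and -0.22 with rapamycin, adjusted p = 0.128). With KU-0063794 it passed with the spleen as a random block (adjusted p = 0.0415 in limma) and not as a fixed one (0.0520).

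Psmb6 read 7.36, 7.30 and 7.44 log2 with KU-0063794 (log2 fold change -0.20, 95% interval -0.37 to -0.04). Psmb5 read 7.27, 7.26 and 7.41 log2, and Psmb7 read 4.077, 4.003 and 4.023 log2. Their log2 fold changes were -0.01 and -0.03, and both groups overlapped those of DMSO. Psma7 read 7.42, 7.30 and 7.63 log2 (log2 fold change 0.12, 95% interval -0.13 to 0.38). Psmf1, an inhibitor of the core also called PI31, had the highest regulator value, with 4.45, 4.63 and 4.63 log2 in DMSO and 4.64, 4.74 and 4.55 with KU-0063794 (log2 fold change 0.07, 95% interval -0.12 to 0.26).

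No immunoproteasome gene passed the test with KU-0063794. Psmb9 read 7.26, 7.05 and 7.22 log2 (log2 fold change 0.12, 95% interval -0.14 to 0.38). Psme1 read 8.38, 8.41 and 8.47 log2 (log2 fold change 0.11, 95% interval -0.07 to 0.30). Both were higher than DMSO in every spleen, with overlapping groups. Psmb8 read 8.61, 8.58 and 8.53 log2 and Psmb10 read 6.84, 6.92 and 7.10 log2, with fold changes of -0.07 and 0.0038. The second Psmb8 probe set read 3.72 ± 0.03 log2 with KU-0063794 (SD, n = 3), a difference of -0.21 from DMSO. The change of Psmb9 exceeded that of Psmb6 by 0.39, 0.34 and 0.25 log2 in spleens 1 to 3, while the other 2 pairs differed by -0.10 to 0.13 log2.

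**Figure D3:**
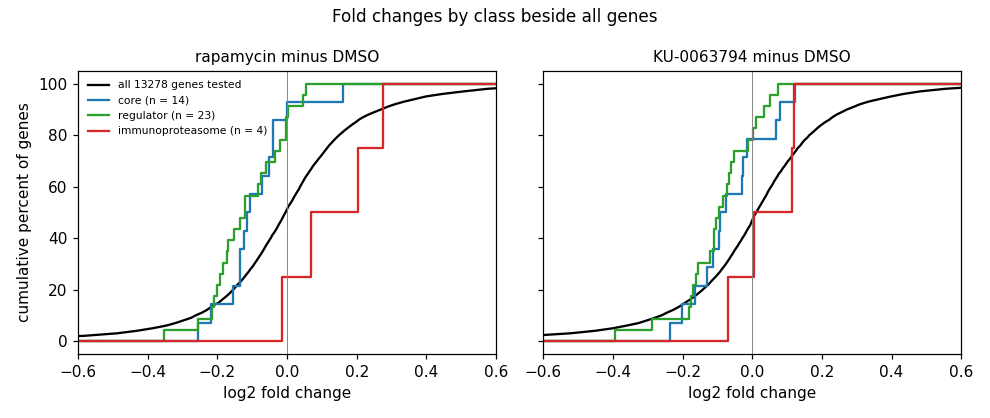
Cumulative percent of genes (vertical) by log2 fold change (horizontal) for the 14 core, 23 regulator and 4 immunoproteasome genes and all 13278 genes tested, for each inhibitor against the same DMSO arrays. Near 0 the core and regulator lines run left of the line for all genes, with medians of -0.11 and -0.12 in rapamycin; the 4 immunoproteasome genes have a median of 0.14 in rapamycin and 0.06 in KU-0063794, where their line crosses that of all genes.

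The 4 chaperones that assemble the 20S rings did not pass in any comparison. Psmg2 read 5.34, 5.13 and 5.51 log2 in DMSO, 5.60, 5.52 and 5.48 with rapamycin and 5.60, 5.64 and 5.70 with KU-0063794. The KU-0063794 values lay above all DMSO values (log2 fold change 0.32, 95% interval 0.09 to 0.54, adjusted p = 0.122 in limma). With rapamycin the groups overlapped (log2 fold change 0.20). Psmg1 varied most between spleens, with 4.86, 5.46 and 4.83 log2 in DMSO, 5.09, 5.20 and 4.73 with rapamycin and 5.31, 5.33 and 4.99 with KU-0063794. Psmg3 read 4.93, 4.98 and 5.08 log2 in DMSO, 4.94, 4.89 and 4.97 with rapamycin and 5.17, 4.97 and 5.27 with KU-0063794, and Psmg4 stayed between 5.46 and 5.57 log2 on all 9 arrays.

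KU-0063794 and rapamycin were compared at the 1 dose of each, and the doses are not matched. No gene of the 47 passed in limma, with or without the spleen as a block, and none had an unadjusted p under 0.05 without it. Over all genes, 0% passed the adjusted test and 4.74% the unadjusted one. The 95% intervals of the 47 differences all held 0 and together ran from -0.42 to 0.63 log2. The data bound each difference by its own interval, narrower than this span, such as -0.16 to 0.15 log2 for Psme3. The immunoproteasome genes had a median difference of -0.08 log2, with all 4 below 0, beside 46.1% of all genes. The 20S assembly chaperones had a median of 0.16 log2, with all 4 above 0, beside 53.8% of all genes, and all 4 higher in every spleen, beside 16.3%. The lowest value was that of Psmb9 (-0.15 log2, 95% interval -0.42 to 0.11) and the highest among subunits and chaperones that of Psmg1 (0.20 log2, 95% interval -0.22 to 0.63).

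Other probe sets of the same genes gave a look at how far the values depend on the probes. Of 54 further probe sets, 24, from 19 genes, were above the background level. In each inhibitor's comparison with DMSO, 17 of these 24 had the sign of the probe set used for the gene. Their differences lay below 0 in 15 with rapamycin and 16 with KU-0063794.

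Of 11 measured genes for proteasome parts and regulators with other names, only Nfe2l1, the gene of NRF1, passed the test. Among all genes tested, 1.79% were lower with rapamycin and 1.78% with KU-0063794 by that rule. Nfe2l1 read 4.18, 4.11 and 3.88 log2 in DMSO, 3.55, 3.55 and 3.47 with rapamycin and 3.66, 3.52 and 3.56 with KU-0063794. Neither inhibitor group overlapped DMSO, and Nfe2l1 fell by 0.53 on the log2 scale with rapamycin (SE 0.092, adjusted p = 0.0159 in limma) and by 0.48 with KU-0063794 (adjusted p = 0.0248). The rapamycin call was lost without DMSO replicate 1, rapamycin replicate 1 or rapamycin replicate 3 (adjusted p up to 0.0623), and the KU-0063794 call without DMSO replicate 1 or 2 or any KU-0063794 replicate (up to 0.0939). Pomp, the chaperone that matures the core and whose gene NRF1 also drives, read 8.16 to 8.23 log2 on all 9 arrays, with log2 fold changes of 0.0069 and 0.0112. Of 9 measured genes for ubiquitin shuttling, none passed in either comparison in limma. At an unadjusted p under 0.05, Vcp, the unfolding ATPase, was lower with rapamycin, and its cofactors Nploc4 and Ufd1 were lower with KU-0063794. Over all genes, 8.74% were lower with rapamycin and 8.43% with KU-0063794 at that threshold. For Ufd1, 1 of 2 probe sets above the background level was lower with KU-0063794. With the spleen as a block, Nploc4 (adjusted p = 0.0408) and the NRF1 partner Mafk (adjusted p = 0.0197), named after their values were seen, passed with KU-0063794. In that fit 5.86% of all genes were lower.

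Of 18 measured genes of MHC class I processing and interferon gamma signalling, 1 fell and 2 rose with rapamycin, beside 1.79% and 2.65% of all genes, and 1 fell and 1 rose with KU-0063794, beside 1.78% and 2.28%. Ifng, the inducer of the immunoproteasome, read 10.54, 9.62 and 9.44 log2 in DMSO, 7.63, 7.57 and 6.55 with rapamycin and 7.60, 7.49 and 6.60 with KU-0063794. All inhibitor values lay below all DMSO values, and Ifng fell by 2.62 on the log2 scale with rapamycin (adjusted p = 0.0105 in limma) and by 2.63 with KU-0063794 (adjusted p = 0.0114). Both calls were kept without any 1 array and lost without any 1 of the 3 spleens (adjusted p 0.104 to 0.141 with rapamycin and 0.110 to 0.145 with KU-0063794).

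Erap1, the aminopeptidase that trims peptides in the endoplasmic reticulum, read 4.74, 4.94 and 5.04 log2 in DMSO, 5.43, 5.38 and 5.64 with rapamycin and 5.33, 5.51 and 5.44 with KU-0063794. It rose by 0.58 log2 (adjusted p = 0.0184 in limma) and 0.52 log2 (adjusted p = 0.0293), calls that were lost without the same arrays as those of Nfe2l1. Tapbpl, the peptide editor TAPBPR, read 3.97, 3.67 and 4.06 log2 in DMSO, 4.62, 4.22 and 4.45 with rapamycin and 4.31, 4.22 and 4.22 with KU-0063794. It rose with rapamycin by 0.53 log2 (adjusted p = 0.0487 in limma), a call kept only without 1 of the 9 arrays, rapamycin replicate 2. Median centring, no filter or only the 2 groups compared also removed that call (adjusted p = 0.0536, 0.0572 and 0.134 in limma). With only the 2 groups, the calls of Nfe2l1 (adjusted p = 0.0604 with rapamycin and 0.0789 with KU-0063794 in limma) and Erap1 (0.0654 and 0.0681) were lost. Those of Ifng were kept. With KU-0063794 the log2 fold change of Tapbpl was 0.35 (adjusted p = 0.169 in limma, and 0.0450 in the blocked fit). The calls of Psmc6, Nfe2l1, Erap1 and Tapbpl were each lost when any 1 spleen was left out, as were those of Ifng. Fewer arrays per group then remain. Over all genes, the 590 rapamycin calls became 0 to 514 with an array or spleen left out, so these losses do not single out these genes.

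Tap1, a subunit of the peptide transporter, lies beside Psmb9 in the MHC region. It read 6.42, 6.17 and 6.38 log2 in DMSO, 6.68, 6.52 and 6.65 with rapamycin and 6.42, 6.39 and 6.29 with KU-0063794. The rapamycin values lay above all DMSO values without passing the test (log2 fold change 0.29, adjusted p = 0.120 in limma, 0.0523 with the spleen as a fixed block and 0.0492 as a random one). The mean of all Tap1 probe sets, of which only 1 was above the background level, gave 0.07. The KU-0063794 values overlapped those of DMSO (0.04). B2m, the light chain of MHC class I, read 11.15, 11.18 and 11.25 log2 in DMSO, 11.22, 11.23 and 11.36 with rapamycin and 11.07, 11.08 and 11.19 with KU-0063794, with overlapping groups. With the spleen as a block, 2 of the 18 were lower and 5 higher with rapamycin, beside 5.52% and 6.24% of all genes, and 2 were lower and 2 higher with KU-0063794, beside 5.86% and 6.52%. The genes added by the block, named after their values were seen, were Jak1 (lower with both), and Tapbp, H2-D1 and Irf1 (higher with rapamycin).

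**Figure D4:**
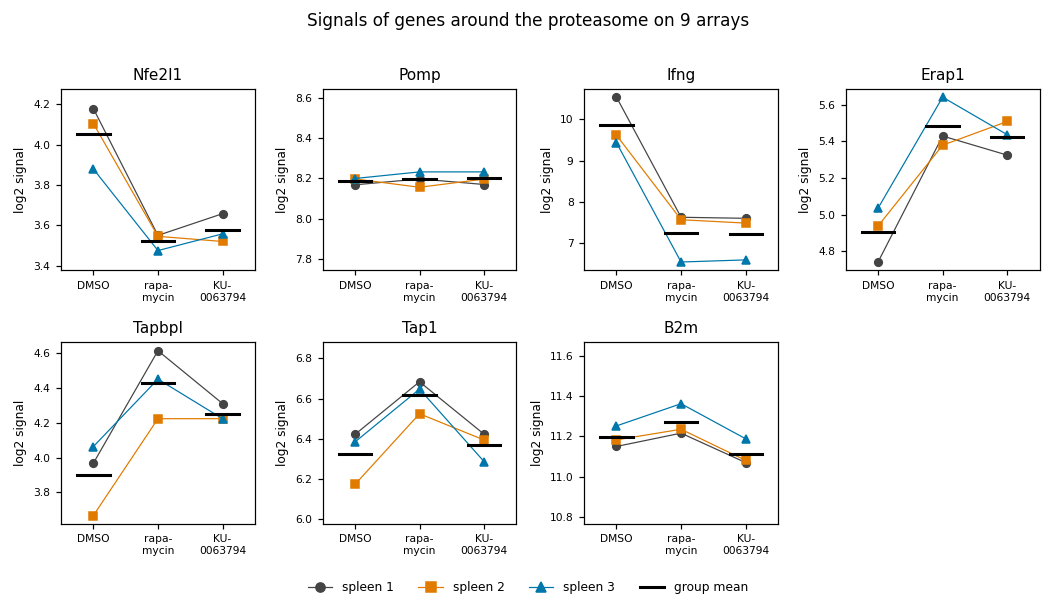
Log2 signal of 7 genes around the proteasome on the 9 arrays; each line joins the 3 cultures of 1 spleen, bars are group means, and vertical axes differ in position and span. Nfe2l1 and Ifng are lower and Erap1 higher in every spleen with both inhibitors, and Pomp stays within 8.16 to 8.23.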

How the data were processed

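The deposited values were 1 column per array of log2 signals made by the authors with Affymetrix Expression Console 1.3.1, per the submitters' processing notes. Their background correction, summarisation and normalization are not given in the sources used here. Base 2 was checked on the hybridisation controls (slope 1.00 per doubling). Array medians were 0.47 to 0.53 log2. The number of arrays, 3 per group, limits the precision.

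Probe sets were named from the platform annotation: 34945 carried 1 symbol, 932 several and 9160 none. A gene was tested if its mean exceeded 0.31 log2, the 40th percentile over probe sets, 13278 in all. Groups were compared with limma 3.58.1 in R 4.3.3 (lmFit and eBayes, 3 groups, all 9 arrays), with Benjamini-Hochberg adjustment over all genes tested and a threshold of 0.05. The script was tested on simulated data. The labels say that same-numbered cultures share a spleen. Deviations from group means correlated at 0.345 to 0.533 over the 9 same-numbered pairs of arrays and at -0.414 to -0.0791 over the other 18, so the spleen was also fitted as a block.

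Array values are given for the immunoproteasome and constitutive catalytic genes, for every called gene and for the extremes of each class, and for Nfe2l1, Pomp, Ifng, Tap1 and B2m. Alternatives changed the block, groups fitted, normalization, filter, probe sets, variance model and arrays. The members, lists and rules were chosen with earlier results of these data known.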

Additional observations from a re-analysis of the deposited data

How the results depend on the processing

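With 3 arrays per group, counts of calls depended on the fit. The block, the groups fitted, the filter and the variance model cannot alter a gene's fold change in this balanced design. The alternatives for the lists of neighbouring genes were chosen after seeing the data. Proteasome genes called with rapamycin, 1 in the reported fit, numbered 2 with the spleen as a block, whether fixed or random, 3 with a variance trend and robust fit, and 0 with only the 2 groups compared, with median centring or with the mean of all probe sets, and 0 to 1 with an array or spleen left out. With KU-0063794, 0 in the reported fit, they numbered 2 with the fixed block, 3 with the random block, 2 with the trend and robust fit, and 0 to 1 with an array or spleen left out (1 without DMSO replicate 2). Over all genes, 590 calls with rapamycin became 1561 with the fixed block, 1245 with the random block, 98 with only 2 groups and 0 to 514 with an array or spleen left out. The 540 calls with KU-0063794 became 1644, 1291, 111 and 0 to 548. In the neighbouring lists, 4 calls with rapamycin became 8, 8, 1 and 0 to 4, and 3 with KU-0063794 became 7 with the fixed block, 1 with 2 groups, 5 with the trend and robust fit and 0 to 3 with an array or spleen left out. In the comparison of the inhibitors no setting with an array or spleen left out gave a call. The mean of all probe sets takes in those below the background level too. With it, the core median became -0.0544 (rapamycin), -0.0341 (KU-0063794) and 0.0235 (KU-0063794 against rapamycin), and the regulator median -0.0594 and -0.0818 for the first 2. With arrays or spleens left out, medians with rapamycin ran from -0.129 to -0.0694 (core), -0.148 to -0.0898 (regulator) and 0.0686 to 0.208 (immunoproteasome). They ran from -0.105 to -0.0566 (core), 0.0025 to 0.131 (immunoproteasome) and -0.104 to -0.0673 (regulator) with KU-0063794, and from 0.019 to 0.0525 (core) and 0.008 to 0.0551 (regulator) between inhibitors. Genes that changed sign had fold changes near 0, and the cause was not tested. With rapamycin these were Pomp (-0.0035), Psmb8 (0.0018) and Psmg4 (-0.0038) with quantile normalization, Psmg4 (-0.0056) with median centring and Psmg3 (0.0227) with the mean of probe sets. With KU-0063794 they were Psmb10 (-0.0037) with median centring and Tap1 (-0.0432) with the mean of probe sets, which between inhibitors turned Psma5 (0.0089), Psmc6 (-0.0945) and Psmg4 (-0.0254). With an array or spleen left out, ranges with rapamycin were -0.0117 to 0.031 for Pomp, -0.0289 to 0.161 for Psmb10, -0.0157 to 0.0754 for Psmf1, -0.0656 to 0.0347 for Psmb8, -0.179 to 0.162 for Psmg1 and -0.0088 to 0.0067 for Psmg4. With KU-0063794 they were -0.0931 to 0.097 for Psmb10, -0.048 to 0.111 for Tap1, -0.0632 to 0.0483 for Psmb5, -0.08 to 0.0373 for Psmb7, -0.0577 to 0.0246 for Psmd8 and -0.0052 to 0.0261 for Pomp. Between inhibitors they were -0.37 to 0.298 for Ifng, -0.0153 to 0.0229 for Pomp, -0.155 to 0.0191 for Erap1, -0.127 to 0.0345 for Psma7, -0.139 to 0.0305 for Psmb10 and -0.0212 to 0.0829 for Psmf1.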
